A study of Mus musculus with 19 samples.

Results

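Hspa1a, Hspa1b, Hspa8, Hsp90aa1, Hsp90ab1, Dnajb1, Dnaja1, Hsph1, Hspd1 and Hsf1 are the core genes of the heat shock response, 9 chaperone genes and the gene of the transcription factor that induces them. They were taken by gene symbol from a table of 34432 genes measured in mouse bone marrow, and all 10 were found and were among the 13976 genes tested. Polyadenylated RNA was sequenced from the marrow of tibiae and femurs, flushed out of untreated C57BL/6 mice at 8 weeks of age. The kinases CDK8 and CDK19 are alternative subunits of the kinase module of Mediator, the complex through which transcription factors act on RNA polymerase II. The groups were DKO (floxed Cdk8 on both alleles, Vav-iCre and a Cdk19 null background, n = 4 libraries), CDK8KO (floxed Cdk8 with Vav-iCre, n = 4), CDK19KO (Cdk19 null, no Cre, n = 4), VAV (the Vav-iCre transgene alone, n = 4) and WT (wild type, n = 3).

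The Vav promoter drives Cre in blood cells, so the floxed Cdk8 alleles of the other cells of the marrow, such as stroma and bone, are not a target of it. DKO, CDK8KO and VAV share the Cre transgene, which CDK19KO and WT lack. Whether the numbered libraries of a genotype are separate animals is not stated in the labels, and p-values therefore speak of the spread among libraries, part of which may be technical. Libraries held 14881701 to 33010241 reads assigned to genes. Cdk19 stood at 1110 to 1202 normalized counts in DKO and at 1025 to 1174 in CDK19KO, against 2710 to 4304 in the libraries of the other genotypes. Cdk8, counted over the whole gene, stood at 742 to 881 in DKO and 692 to 1298 in CDK8KO, against 972 to 1332 in CDK19KO, 789 to 1315 in VAV and 1206 to 1275 in WT. These counts do not set the CDK8KO libraries apart from CDK19KO, VAV or WT, and a floxed exon cannot be seen in them. Markers of late neutrophils, erythroid cells and B cells were present in every library, none of them at 0. Markers of red cell precursors took 0.156 to 4.02% of reads, with the highest shares in CDK8KO replicate 1 (4.02%) and VAV replicate 3 (3.51%). Skeletal muscle markers stood out in DKO replicate 4, with 0.0354% of reads, and in CDK19KO replicate 4, with 0.127%, against at most 0.00177% elsewhere.

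Chaperones bind unfolded or partly folded proteins and keep them from aggregating. HSP70 proteins do so in cycles of ATP hydrolysis, which J-domain proteins (HSP40) start and nucleotide exchange factors such as HSP110 complete, and HSP90 acts later on kinases, receptors and other clients. When unfolded protein accumulates, HSF1 is released from chaperones, forms trimers and binds heat shock elements, which are inverted repeats of the unit GAA, in the promoters of chaperone genes. In Drosophila, the heat shock factor is known to recruit Mediator to those promoters. Some HSP70 and HSP90 genes are also expressed without stress, since protein synthesis itself needs them, and dividing blood cell precursors make much protein.

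Hspa1b and Hspa1a, the stress-inducible HSP70 genes, lie side by side on chromosome 17, and their promoters are shown because these genes had the largest differences between genotypes. The sequences are the 250 bases before the annotated start, from RefSeq on GRCm38.p6 and on the minus strand, at chr17:34959239-34959488 for Hspa1b and chr17:34972157-34972406 for Hspa1a. Capitals mark a heat shock element of 2 units, written GAANNTTC.
Hspa1b: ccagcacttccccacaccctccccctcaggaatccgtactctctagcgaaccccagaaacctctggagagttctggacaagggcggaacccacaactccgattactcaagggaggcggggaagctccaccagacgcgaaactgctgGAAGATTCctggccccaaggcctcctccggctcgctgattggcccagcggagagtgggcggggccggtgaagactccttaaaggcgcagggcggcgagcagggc
Hspa1a: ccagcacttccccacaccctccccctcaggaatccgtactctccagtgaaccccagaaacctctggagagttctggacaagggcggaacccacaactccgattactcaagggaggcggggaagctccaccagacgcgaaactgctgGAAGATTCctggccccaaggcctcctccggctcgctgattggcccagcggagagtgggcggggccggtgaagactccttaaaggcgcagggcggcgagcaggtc
The upstream sequences were identical at 247 of 250 bases and differed at 3. The element lay at the same place in both, 104 to 97 bases before the start. Promoter entries were matched for 6 of the 10 genes, in 11 windows. Hspa8, Hsp90aa1, Hsp90ab1 and Hsf1 had no entry.

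In the other matched genes, heat shock elements of 2 or 3 units lay before an annotated start of Dnaja1, Hsph1 and Hspd1. None was in the windows of Dnajb1. The sites are shown with the bases around them, 30 in all, with the element in capitals, at chr4:40722333-40722362 on the plus strand for Dnaja1, and on the minus strand at chr5:149636351-149636380 for Hsph1 and chr1:55088053-55088082 for Hspd1.
Dnaja1: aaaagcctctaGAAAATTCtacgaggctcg
Hsph1: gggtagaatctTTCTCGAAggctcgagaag
Hspd1: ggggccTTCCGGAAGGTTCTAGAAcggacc
The Hspd1 site held overlapping elements of 3 units, 144 to 127 bases before the more downstream of its annotated starts. The window of its other start, further upstream, held none. Each of the elements of Dnaja1, Hsph1 and Hspd1 lay inside the span of its gene as given below, which begins further upstream. GAANNTTC was present in a window of 4 of the 6 genes and in 6.69% of 32851 promoter windows of all genes. TTCNNGAA, the same units in the other order, was present for 2 of the 6 genes and in 7.17% of windows. The 3-unit element, a GAA unit, an inverted and another direct one with NN between neighbours, was searched on both strands, contains both shorter forms, and was present for 1 of the 6 genes and in 0.466% of windows. A CCAAT box was present for 5 of the 6 genes and in 33.8% of windows, and TATAAA for 0 of the 6 and in 12.4% of windows. A gene was counted if any of its windows matched, and some genes had more than 1 window. The gene counts are therefore not on the same scale as the shares of windows. Hspa1a and Hspa1b, nearly identical upstream, count as 2 of the 6 genes. A match describes letters in these windows only.

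**Figure D1:**
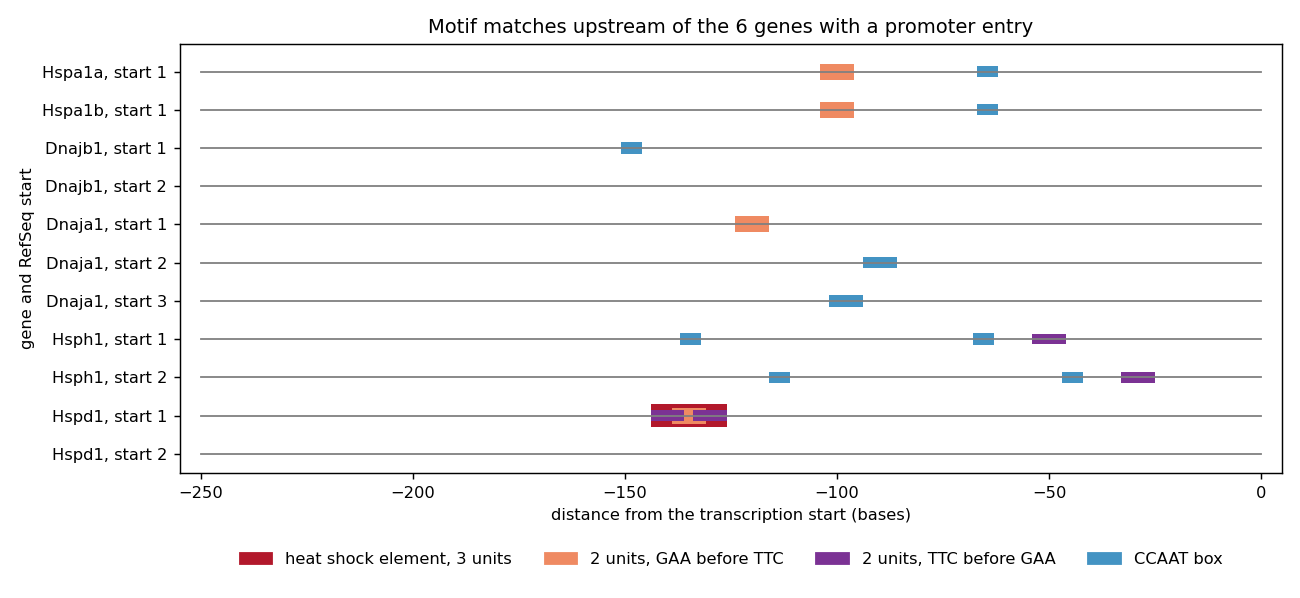
Positions of motif matches in the 250 bases before each RefSeq start of the 6 genes that had a promoter entry, in bases from the start on the horizontal axis. Bars mark heat shock elements of 3 units and of 2 units in either order and the CCAAT box, and the bars of Hspa1a and Hspa1b stand at the same places.

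The 10 genes spanned a wide range of expression. Per kilobase of exon, the mean over the 19 libraries was 6971 normalized counts for Hspa8, 4408 for Hsp90ab1 and 2829 for Hsp90aa1, which placed these abundant chaperones at the 99.1, 98.7 and 97.9 percentiles of the genes tested. Hspd1, the mitochondrial chaperonin HSP60, followed with 843, then the J-domain genes Dnaja1 with 439 and Dnajb1 with 325. Hsph1, an HSP110 gene, had 108 and Hsf1 had 62.7. The inducible genes were lowest, with 24.2 for Hspa1b and 12.0 for Hspa1a, at the 20.9 and 13.4 percentiles. Normalized counts are reads divided by a library factor set by the authors.

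The inducible HSP70 genes were lowest in DKO. Hspa1b (ENSMUSG00000090877; GRCm38/mm10 chromosome 17, 34956436 to 34959238, minus strand) had 16.6, 12.98, 24.2 and 20.98 normalized counts in the DKO libraries, against 356, 68.5, 60.1 and 56.2 in VAV. It had 41.3, 28.7, 68.9 and 176 in CDK8KO, 61.0, 57.8, 48.7 and 40.2 in CDK19KO, and 43.0, 50.5 and 55.0 in WT. Every DKO library lay below every library of the other genotypes, and VAV replicate 1 and CDK8KO replicate 4 stood far above the rest. The share of all genes that separate DKO from every other genotype was not computed. The levels rest on 14 to 23 reads a library in DKO and on 67 to 399 in VAV. In bulk marrow, fewer cells of a type and less RNA per cell cannot be told apart.

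Hspa1b was the only 1 of the 10 genes called in DKO against VAV, at an adjusted p under 0.05 from limma over all genes tested, where 0.694% of genes were called lower. It averaged 18.7 ± 4.92 normalized counts in DKO and 135 ± 147 in VAV (SD, n = 4 each), and the fitted difference on the log2(normalized count + 1) scale was -2.33 ± 0.53 (SE), or 5.02-fold lower (limma adjusted p = 0.0283). The exact two-sided permutation p of the difference was 0.02857, the smallest that 4 against 4 libraries allow. Leaving out VAV replicate 1 reduced the log2 fold change to -1.70 and lost the call, as did leaving out any DKO library (adjusted p between 0.0306 and 0.0752 over the 8 libraries). Without both VAV replicate 1 and CDK8KO replicate 4 the value was again -1.70, now with a limma adjusted p of 0.0129. That pair was chosen after seeing the data, as the libraries highest in Hspa1a and Hspa1b, so this p is no separate test. CDK8KO replicate 4 is in neither group compared and enters only through the estimate of the spread, which all genotypes share. Against WT in place of VAV the log2 fold change was -1.39 (limma adjusted p = 0.247).

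Between DKO and the single knockouts, Hspa1b also showed no overlap. It averaged 18.7 ± 4.92 in DKO, 78.8 ± 67.1 in CDK8KO and 51.9 ± 9.39 in CDK19KO (SD, n = 4 each). The log2 fold change of DKO was -1.71 ± 0.53 against CDK8KO (SE; limma adjusted p = 0.110) and -1.44 ± 0.53 against CDK19KO (SE; limma adjusted p = 0.183), and neither passed. The single knockouts did not pass against their controls either, with -0.62 ± 0.53 for CDK8KO against VAV and 0.06 ± 0.57 for CDK19KO against WT (SE; limma adjusted p = 0.707 and 1).

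Hspa1a (ENSMUSG00000091971; chromosome 17, 34969190 to 34972156, minus strand), the neighbouring inducible HSP70 gene, rested on fewer reads. It had 9.13, 3.46, 12.6 and 0 normalized counts in DKO, against 227, 25.5, 20.04 and 31.9 in VAV. It had 18.5, 2.50, 19.7 and 203 in CDK8KO, 6.10, 13.6, 7.49 and 14.9 in CDK19KO, and 17.2, 34.6 and 11.5 in WT. All DKO libraries lay below all VAV libraries but overlapped with those of CDK8KO, CDK19KO and WT, and the same pair of libraries as for Hspa1b stood highest. DKO replicate 4 held no read of Hspa1a, which allows up to 3 reads, or 4.50 normalized counts. The log2 fold change in DKO against VAV was -3.18 ± 1.01 (SE; limma adjusted p = 0.138), in DKO against CDK8KO -2.22 ± 1.01 (limma adjusted p = 0.284) and in DKO against CDK19KO -1.13 ± 1.01 (limma adjusted p = 0.626). None passed by limma, while DESeq2 on the recovered reads called Hspa1a lower in DKO against VAV (adjusted p = 0.0128) and against CDK8KO (adjusted p = 0.0270). With 1 library left out the limma value against VAV ran from -3.67 to -2.40, and that against CDK8KO from -3.12 without CDK8KO replicate 2 to -1.17 without CDK8KO replicate 4 and -1.44 without DKO replicate 4.

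The reads of Hspa1a and Hspa1b may have been divided between them, which limits what each value means. Their coding sequences were 99.4% identical, at 1918 of 1929 aligned bases, and 40.5% of all 150-base windows of the Hspa1b transcript occur in that of Hspa1a. Hspa1b shared 82.2% of aligned bases with Hspa1l, 78.1% with Hspa2 and 74.1% with Hspa8, and 1.47% of its windows with Hspa1l and 0 with the others. The sum of Hspa1a and Hspa1b, which does not depend on how reads were divided between them, was 16.4 to 36.8 normalized counts in DKO. It was 31.2 to 379 in CDK8KO, 55.1 to 71.4 in CDK19KO, 80.2 to 583 in VAV and 60.1 to 85.1 in WT. DKO and CDK8KO overlapped in the sum, and DKO lay below each of the other 3 genotypes. How often genes separate in this way was not computed.

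**Figure D2:**
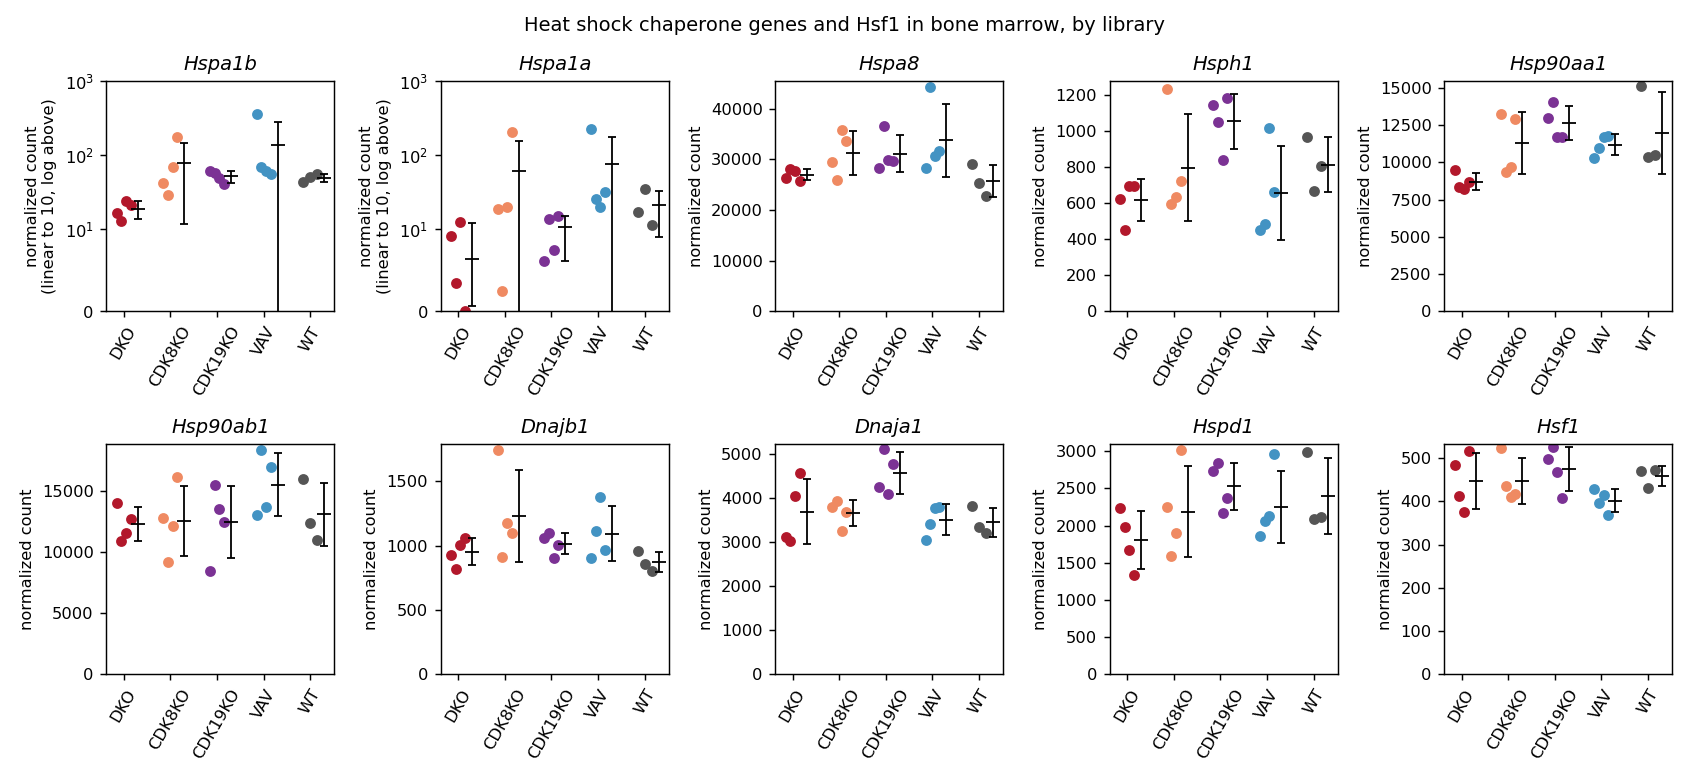
Normalized counts of each gene in every library (points) by genotype, with the mean and SD beside them (bar and whiskers, n = 4, and n = 3 for WT). The vertical axes of Hspa1b and Hspa1a are linear up to 10 and logarithmic above, and there the DKO points of Hspa1b (12.98 to 24.2) lie under all others while VAV replicate 1 (356) and CDK8KO replicate 4 (176) lie far above.

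Hspa8 (ENSMUSG00000015656; chromosome 9, 40800984 to 40810087), the constitutive cytosolic HSP70, had 26376, 28094, 27763 and 25721 normalized counts in DKO, against 28312, 44364, 30634 and 31724 in VAV. It had 29449, 25963, 35781 and 33662 in CDK8KO, 28296, 36549, 29954 and 29740.3 in CDK19KO, and 29123, 25378 and 22757 in WT. DKO lay below VAV and CDK19KO with no overlap, and among the WT libraries. The mean in DKO was 79.9% of that in VAV, or in log2 -0.30 ± 0.14 (SE; limma adjusted p = 0.309), and 86.7% of that in CDK19KO, -0.20 ± 0.14 (SE; limma adjusted p = 0.518). VAV stood above WT by 0.38 ± 0.15 (SE; limma adjusted p = 0.265). None of these passed, and with WT in place of VAV the difference of DKO was 0.074.

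Hsph1 (ENSMUSG00000029657; chromosome 5, 149614287 to 149636376), the nucleotide exchange factor of HSP70, had 625, 454, 698 and 698 normalized counts in DKO, against 1145, 1053, 840.0 and 1187 in CDK19KO. It had 1238, 595, 637 and 726 in CDK8KO, 450.4, 487, 1021 and 665 in VAV, and 971, 666 and 807 in WT. DKO and CDK19KO did not overlap, whereas DKO and VAV covered a similar range. The DKO mean was 58.6% of the CDK19KO mean, and the difference of -0.78 ± 0.25 in log2 (SE; limma adjusted p = 0.129) did not pass. Against VAV the value was -0.03 ± 0.25 and against CDK8KO -0.32 ± 0.25 (SE; limma adjusted p = 0.969 and 0.556).

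Hsp90aa1, the inducible cytosolic HSP90, was lower in DKO than in CDK19KO. The gene (ENSMUSG00000021270; chromosome 12, 110690605 to 110702728, minus strand) had 9493, 8336, 8249 and 8698 normalized counts in DKO, against 13006, 14081, 11737 and 11691 in CDK19KO. It had 13275, 9371, 9709 and 12916 in CDK8KO, 10289, 10980.1, 11732 and 11756 in VAV, and 15125, 10343 and 10478 in WT. DKO lay below CDK19KO, VAV and WT with no overlap and overlapped with CDK8KO through DKO replicate 1. Over all genes, 7.74% lay lower with no overlap against CDK19KO and 4.33% against VAV, and the share against WT was not computed.

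Of the 10 genes, Hsp90aa1 was the 1 called in DKO against CDK19KO, where 0.658% of all genes were called lower by limma. It averaged 8694 ± 567 in DKO and 12629 ± 1144 in CDK19KO (SD, n = 4 each), 1.45-fold lower on the fitted scale (log2 fold change -0.54 ± 0.13, limma adjusted p = 0.0436). The exact two-sided permutation p was 0.02857, the smallest possible. The log2 fold change stayed between -0.58 and -0.48 with any 1 of the 8 libraries left out, but the call was lost each time (limma adjusted p 0.0576 to 0.152). DKO also differs from CDK19KO by the Cre transgene, and Hsp90aa1 in VAV against WT was -0.08 ± 0.15 (SE; limma adjusted p = 0.834). The value was -0.36 ± 0.13 in DKO both against VAV (limma adjusted p = 0.199) and against CDK8KO (limma adjusted p = 0.181), and neither passed.

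Red cell markers had lower estimates beside Hsp90aa1. All 24 erythroid markers tested had lower estimates in DKO than in CDK19KO, with a median of -1.38, and their share of reads was 0.202 to 0.491% in DKO and 0.661 to 1.65% in CDK19KO. Car1, a carbonic anhydrase of red cell precursors, was the 1 of them that passed (-1.61, limma adjusted p = 0.0112). They had lower estimates in DKO than in CDK8KO as well for 24 of 24 (median -1.54), and than in VAV for 23 of 24 (median -0.54). Without DKO, their estimates were higher in CDK8KO than in VAV for 24 of 24 (median 1.12). They were lower in VAV than in WT for 24 of 24 (median -0.64) and higher in CDK19KO than in WT for 22 of 24 (median 0.21). With the erythroid level as a covariate, Hsp90aa1 was -0.49 in DKO against CDK19KO (limma adjusted p = 0.158) and Hspa1b was -2.47 in DKO against VAV (limma adjusted p = 0.0103).

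Markers of other cells differed in the same comparisons. In DKO against CDK19KO, where Hsp90aa1 was called, limma also called Mrc1, a macrophage receptor (-1.23, adjusted p = 0.000721), and Camp, a neutrophil granule protein (-0.72, adjusted p = 0.0276), lower. It called Ly6c2 of monocytes (1.39, adjusted p = 0.0181), Cd8a of T cells (1.67, adjusted p = 0.0138) and Xbp1 of plasma cells (0.52, adjusted p = 0.0200) higher. As lists, late neutrophil markers had higher estimates for 8 of 13 (median 0.10), unlike Camp. Monocyte and macrophage markers had higher estimates for 5 of 10 (median -0.11), T cell markers for 7 of 7 and plasma cell markers for 3 of 5. Megakaryocyte and platelet markers had lower estimates for 6 of 6 (median -1.47), at 0.00922 to 0.0231% of reads in DKO and 0.0231 to 0.122% in CDK19KO. At an unadjusted p under 0.05 stood 5 of them, beside 6.99% of all genes lower. Limma and edgeR called 0 of them, and DESeq2 called 1, beside 1.39% of all genes lower.

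In DKO against VAV, where Hspa1b was called, late neutrophil markers had lower estimates for 13 of 13 genes (median -0.52), at 3.28 to 4.62% of reads in DKO and 3.77 to 6.08% in VAV. Of these, Camp and Mmp8 fell (limma adjusted p = 0.0136 and 0.0116). T cell markers had higher estimates for 7 of 7, at 0.00448 to 0.0145% of reads in DKO and 0.00399 to 0.00620% in VAV, and Cd8a rose (1.83, limma adjusted p = 0.00753). Prdm1 of plasma cells rose as well (0.91, limma adjusted p = 0.0305), and megakaryocyte and platelet markers had lower estimates for 6 of 6 (median -1.22). In VAV against WT the late neutrophil markers had higher estimates for 12 of 13 (median 0.51), and their share in WT was 3.48 to 4.38% of reads.

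In DKO against CDK8KO limma called Car1 (-1.52, adjusted p = 0.0184), Camp (-0.95, adjusted p = 0.00486) and Mmp8 (-0.86, adjusted p = 0.0342) lower. It called Cd8a (1.68, adjusted p = 0.0148), Xbp1 (0.63, adjusted p = 0.00621), Prdm1 (0.96, adjusted p = 0.0224) and Cdh5 of vessels (0.98, adjusted p = 0.0342) higher. Of these lists, Tnfrsf17 of plasma cells was at 0 in 5 libraries and no other marker was at 0 in any. The part of the neutrophil, monocyte, platelet, T cell, plasma cell and vessel markers in the chaperone levels was not tested.

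Hsp90ab1 (ENSMUSG00000023944; chromosome 17, 45567775 to 45573271, minus strand), the constitutive HSP90, differed little between knockouts. It averaged 12311 ± 1384 normalized counts in DKO, 12569 ± 2875 in CDK8KO, 12517 ± 2968 in CDK19KO and 15556 ± 2569.9 in VAV (SD, n = 4 each), and 13125 ± 2595 in WT (SD, n = 3). The log2 fold change of DKO was -0.33 ± 0.19 against VAV, -0.01 ± 0.19 against CDK8KO and 0.0034 ± 0.19 against CDK19KO (SE; limma adjusted p = 0.406, 0.988 and 0.995). CDK8KO against VAV gave -0.32 ± 0.19 (SE; limma adjusted p = 0.610). The libraries of all 5 genotypes overlapped.

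The proteins of the J-domain genes bring clients to HSP70, and neither gene passed in any comparison. Dnajb1 (ENSMUSG00000005483; chromosome 8, 83608193 to 83612653), the HSF1-induced HSP40, averaged 951 ± 105 in DKO, 1230.1 ± 361 in CDK8KO, 1016 ± 82.3 in CDK19KO and 1092 ± 213 in VAV (SD, n = 4 each), and 872 ± 79.5 in WT (SD, n = 3). Its differences in DKO were -0.34 ± 0.17 against CDK8KO, -0.10 ± 0.17 against CDK19KO and -0.19 ± 0.17 against VAV on the log2 scale (SE; limma adjusted p = 0.334, 0.813 and 0.619). CDK8KO replicate 1, at 1746, was the highest library of Dnajb1 and of Hsph1 (1238).

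Dnaja1 (ENSMUSG00000028410; chromosome 4, 40722150 to 40737149) was the 1 gene of the 10 that separated CDK19KO from WT. It had 4255, 5118, 4088 and 4768 normalized counts in CDK19KO, against 3802, 3329 and 3189 in WT. It had 3111, 3026, 4032 and 4553 in DKO, 3795, 3921, 3237 and 3669.6 in CDK8KO, and 3039, 3408, 3764 and 3801 in VAV. The CDK19KO libraries also lay above all those of CDK8KO and VAV, for which a share of all genes was not computed, and overlapped with DKO. The difference from WT was 0.40 ± 0.14 on the log2 scale (SE; limma unadjusted p = 0.00914, adjusted p = 1) and did not pass over all genes. DKO against CDK19KO was -0.32 ± 0.13 (SE; limma adjusted p = 0.227).

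Hspd1 (ENSMUSG00000025980; chromosome 1, 55077835 to 55088243, minus strand), which folds proteins imported into mitochondria, had 2241, 1987, 1674 and 1337 normalized counts in DKO, against 2738, 2839, 2168 and 2367 in CDK19KO. It had 2248, 1587, 1901 and 3018 in CDK8KO, 1854, 2055, 2124 and 2959 in VAV, and 2992, 2093 and 2119 in WT. DKO replicate 1 lay above CDK19KO replicate 3, so these groups overlapped. The difference was -0.50 ± 0.20 (SE; limma adjusted p = 0.227).

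Hsf1 (ENSMUSG00000022556; chromosome 15, 76477422 to 76501913), the inducer, was the steadiest gene of the set. It averaged 448 ± 64.6 in DKO, 447 ± 53.1 in CDK8KO, 475 ± 50.4 in CDK19KO and 402 ± 26.6 in VAV (SD, n = 4 each), and 459 ± 22.9 in WT (SD, n = 3). The log2 fold change of DKO was 0.15 ± 0.13 against VAV, -0.0015 ± 0.13 against CDK8KO and -0.09 ± 0.13 against CDK19KO (SE; limma adjusted p = 0.597, 0.997 and 0.766). The VAV libraries (368 to 429) lay below those of WT (432 to 472), with a difference of -0.19 ± 0.14 that did not pass (SE; limma adjusted p = 0.521). Over all 19 libraries its coefficient of variation was 11.03%, against 15.7% for Dnaja1, 115% for Hspa1b and 179% for Hspa1a. Transcript level says nothing about the activity of HSF1, which is set after translation.

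**Figure D3:**
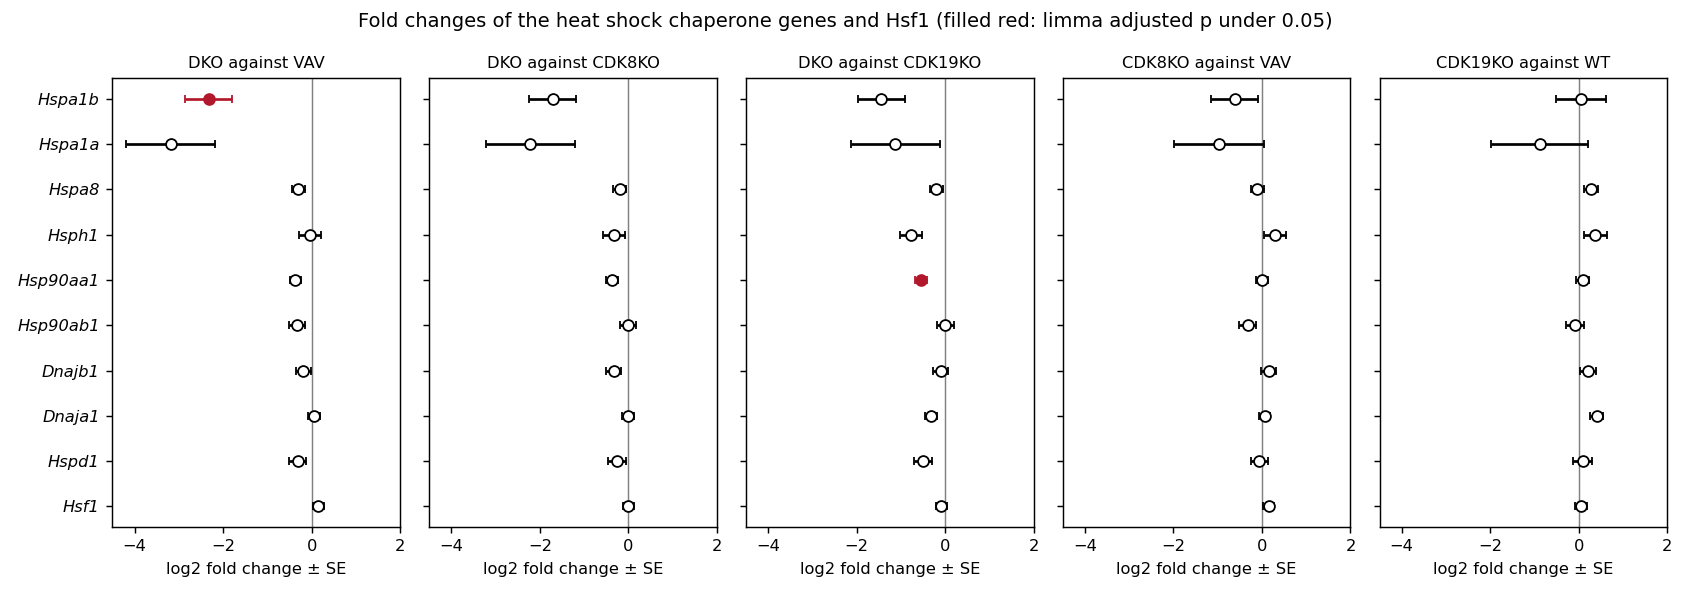
Log2 fold change (log2(normalized count + 1) scale) with its SE for each gene in 5 comparisons, from a limma fit over all 5 genotypes. Filled red points passed at an adjusted p under 0.05, which were Hspa1b in DKO against VAV (-2.33) and Hsp90aa1 in DKO against CDK19KO (-0.54).

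Over the set, estimates in DKO were mostly negative. In DKO against VAV 8 of 10 genes had a lower estimate, with a median log2 fold change of -0.31 beside -0.01 for all genes tested. At an unadjusted p under 0.05 stood 4 of them, all lower (8.3% of all genes), and for 4 of the 10 the libraries did not overlap (4.33% of all genes lower). These 4 were Hspa1a, Hspa1b, Hspa8 and Hsp90aa1. The edgeR quasi-likelihood test called 1 of the 10 lower (0.594% of all genes) and DESeq2 2 (1.75%).

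For DKO against CDK8KO all 10 estimates were lower, with a median of -0.29 beside 0.00 for all genes. The median was -0.42 without CDK8KO replicate 2 and -0.19 without CDK8KO replicate 1. None of the 10 was called by limma, where 0.651% of all genes were called lower, and 3 stood at an unadjusted p under 0.05 (8.55% of all genes), namely Hspa1b, Hspa1a and Hsp90aa1. Only Hspa1b had no overlap (3.81% of all genes). The edgeR test called 0 of the 10 (0.658% of all genes) and DESeq2 called 2, Hspa1b and Hspa1a (2.75%). Without VAV replicate 1 and CDK8KO replicate 4, limma called Hspa1b lower in DKO against CDK8KO (-1.21, adjusted p = 0.0434) and against CDK19KO (-1.44, adjusted p = 0.0127). These libraries were chosen after seeing the data, as the highest in Hspa1a and Hspa1b, so these calls are no separate test of Hspa1b. Neither is a DKO or CDK19KO library. Against CDK19KO only the estimate of the spread, which all genotypes share, could change.

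In DKO against CDK19KO 9 of 10 estimates were lower, and the median was -0.41 beside -0.01 for all genes. At an unadjusted p under 0.05 stood 5 genes (6.99% of all genes), which were Hsp90aa1, Hsph1, Hspa1b, Dnaja1 and Hspd1. For 4 of the 10, Hspa1b, Hspa8, Hsp90aa1 and Hsph1, the libraries did not overlap (7.74% of all genes). The edgeR test and DESeq2 each called 1, Hsp90aa1 (0.601 and 1.39% of all genes). These 3 comparisons share the DKO libraries, so their values do not count as separate evidence.

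The comparisons without DKO gave few differences. In CDK8KO against VAV limma called none of the 10 and 0.0% of all genes, none of the 10 reached an unadjusted p under 0.05, and edgeR and DESeq2 called 0 of them. The median was -0.03, with 5 estimates lower and 5 higher. In CDK19KO against WT limma called 0 of the 10 and 0.0215% of all genes, and edgeR and DESeq2 called 0. Dnaja1 alone stood at an unadjusted p under 0.05 (1.45% of all genes higher) and alone had no overlap (3.56% of all genes higher), while 8 of 10 estimates were higher (median 0.09, which was 0.26 without WT replicate 1 and 0.034 without CDK19KO replicate 2).

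VAV against WT sets the Cre transgene alone beside its absence. Limma called 0 of the 10 and 0.093% of all genes, and edgeR and DESeq2 called 0 of the 10. Hspa8 alone stood at an unadjusted p under 0.05 (8.92% of all genes higher). Hspa1b lay higher in VAV with no overlap (6.93% of all genes) and Hsf1 lower (5.47%). The median was 0.14, with 6 of 10 estimates higher, and it ran from 0.050 without WT replicate 3 to 0.24 without WT replicate 1.

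The interaction asks whether the effect of Cdk19 loss differs where Cdk8 is deleted with Vav-iCre and where it is not, as the difference between DKO and CDK8KO less that between CDK19KO and WT. Limma called 0 of the 10 and 0.15% of all genes, and edgeR and DESeq2 called 0 of the 10. The estimate was negative for 9 of the 10, with a median of -0.47 beside 0.00 for all genes. At an unadjusted p under 0.05 stood 5 genes (4.14% of all genes were lower at that level), namely Hspa1b (-1.77 ± 0.77), Dnajb1 (-0.55 ± 0.25), Hspa8 (-0.47 ± 0.21), Hsp90aa1 (-0.46 ± 0.20) and Dnaja1 (-0.41 ± 0.19; SE). Their limma adjusted p lay between 0.540 and 0.567, so a difference between the contexts was not shown for any of them. All 24 erythroid markers also had a negative estimate here, with a median of -1.72.

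Across libraries of the same genotype the genes varied together only in part. Of 45 pairs of genes, compared by the deviations of their log2 levels from the genotype mean over 19 libraries, 33 had a positive Pearson correlation, and the median was 0.21. After Benjamini-Hochberg adjustment over the 45 pairs 2 passed by permutation within genotypes. Dnajb1 and Hsph1 had r = 0.84 (adjusted permutation p = 0.0324) and rho = 0.83 (adjusted permutation p = 0.0155). Hsp90aa1 and Hspd1 had r = 0.75 (adjusted permutation p = 0.0324) and rho = 0.80 (adjusted permutation p = 0.0155). With the 2 libraries farthest from the median left out, r was 0.67 for the first pair (without CDK8KO replicate 1 and VAV replicate 3; adjusted permutation p = 0.213) and 0.78 for the other (without CDK8KO replicate 1 and WT replicate 1; adjusted permutation p = 0.132), and no pair passed. Hspa1a and Hspa1b had r = 0.74 (adjusted permutation p = 0.122) and rho = 0.52 (adjusted permutation p = 0.300), and these genes share reads as described above.

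**Figure D4:**
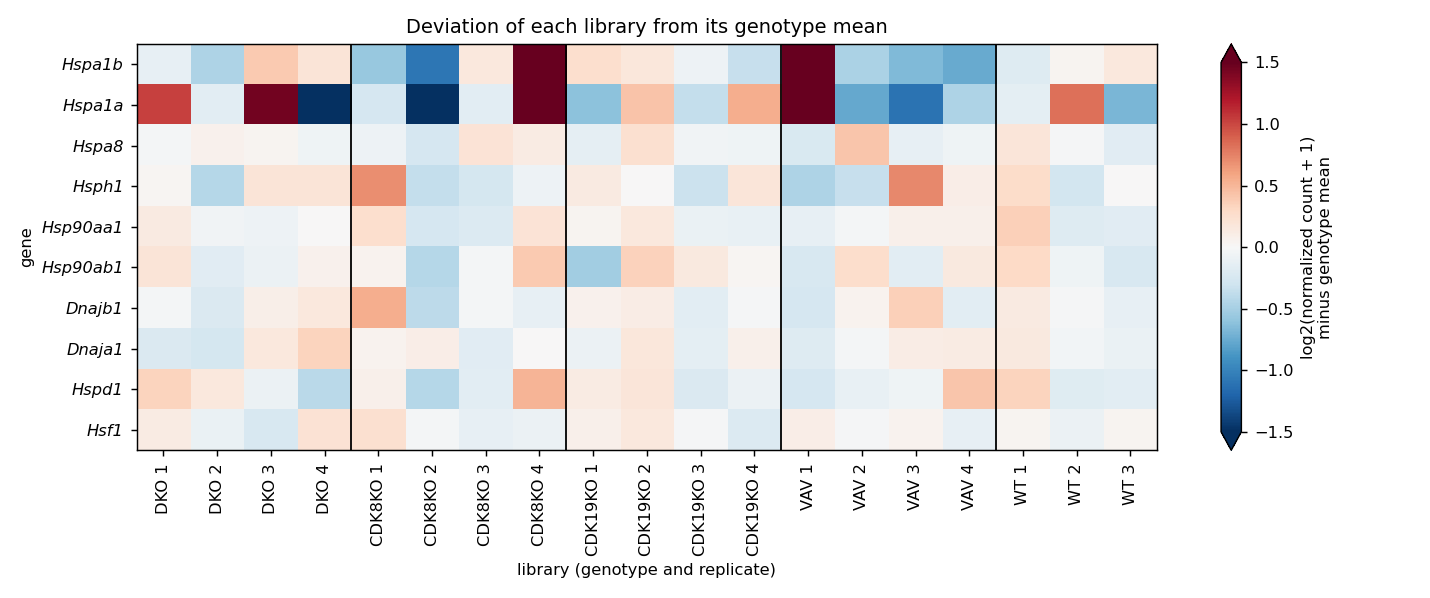
Deviation of each library from the mean of its genotype, on the log2(normalized count + 1) scale, for each gene (rows) in each library (columns, with lines between genotypes). Colours stop at the ends of the scale, and Hspa1a and Hspa1b stand far above their means in CDK8KO replicate 4 and VAV replicate 1.

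Levels were also set against marker lists. Of 20 relations, each gene with the mean level of the erythroid list and of a list of 26 tested immediate early genes, 1 passed, and these relations were chosen after the data were seen. Hspa1b followed the immediate early list with r = 0.86 (adjusted permutation p = 0.0142) and rho = 0.80 (adjusted permutation p = 0.0206), and with r = 0.73 (adjusted permutation p = 0.210) without CDK8KO replicate 4 and VAV replicate 1, where it no longer passed. Dnajb1 and Hsph1 followed the erythroid list with r = 0.70 and 0.72 (adjusted permutation p = 0.240 each) and rho = 0.56 and 0.54 (adjusted permutation p = 0.256 each). Without CDK8KO replicate 1 and VAV replicate 3 both values of r fell to 0.28, so these relations rest on that pair of libraries.

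**Figure D5:**
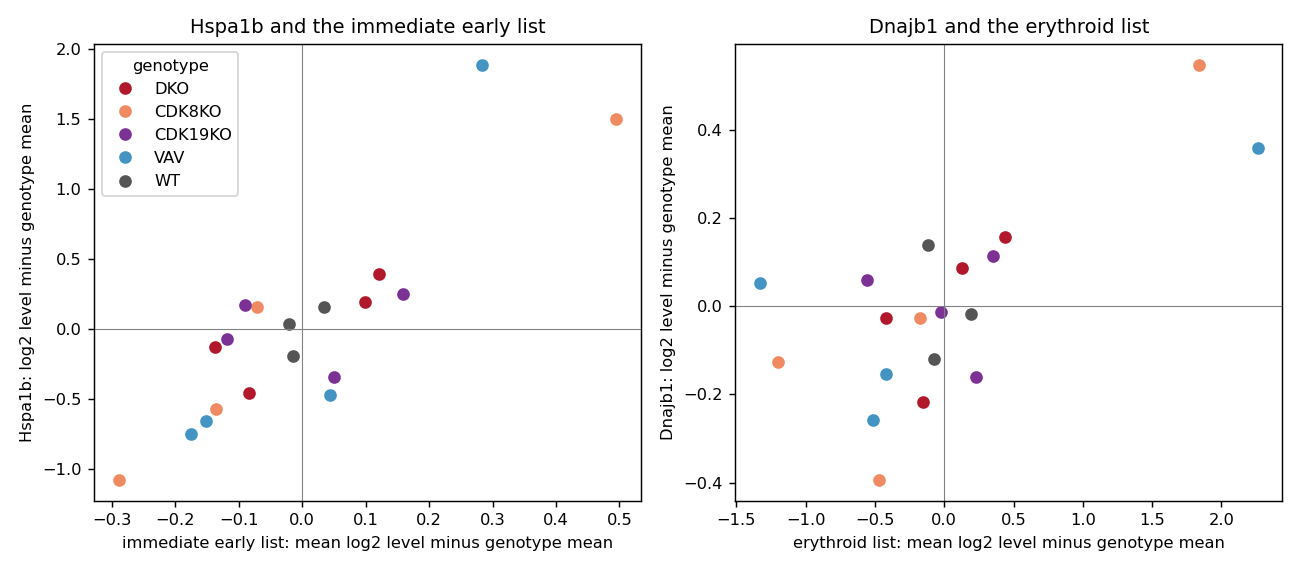
Deviations from the genotype mean, on the log2 scale, of Hspa1b against the mean of the immediate early list (left) and of Dnajb1 against the mean of the erythroid list (right), a point for each of 19 libraries coloured by genotype. On the left the points rise together (r = 0.86), with CDK8KO replicate 4 and VAV replicate 1 at the upper right, and on the right the relation (r = 0.70) rests on CDK8KO replicate 1 and VAV replicate 3.

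Immediate early genes, which encode transcription factors and feedback regulators switched on within minutes of a stimulus, mostly had lower estimates in DKO beside Hspa1b. In DKO against VAV 21 of 26 had a lower estimate (median -0.29, beside -0.01 for all genes) and 3 fell by limma, which called 0.694% of all genes lower. Against CDK8KO 18 were lower in DKO (median -0.18), and against CDK19KO 16 (median -0.10). The single knockouts leaned the same way, with 20 of 26 lower in CDK8KO against VAV (median -0.14) and 19 of 26 in CDK19KO against WT (median -0.10). Fos, a subunit of AP-1, averaged 441 ± 130.5 normalized counts in DKO and 1753 ± 1164 in VAV (SD, n = 4 each), which is -1.84 ± 0.36 in log2 (SE; limma adjusted p = 0.0117). Dusp1, a phosphatase that switches off MAP kinases, averaged 2028 ± 343 in DKO and 4643 ± 1678 in VAV (SD, n = 4 each), -1.15 ± 0.22 (SE; limma adjusted p = 0.0102). Egr1, a zinc finger transcription factor, fell as well, with -1.45 ± 0.30 against VAV (SE; limma adjusted p = 0.0182) and -1.55 ± 0.30 against CDK8KO (SE; limma adjusted p = 0.0129). The calls of Fos and Dusp1 held with any 1 library left out but not with WT as the control (limma adjusted p = 0.0520 for Fos and 0.0601 for Dusp1), and that of Fos also not when the fit held DKO and VAV alone (limma adjusted p = 0.0571). That of Egr1 against VAV was lost without DKO replicate 1 or 2 or VAV replicate 1 or 2, and against CDK8KO without DKO replicate 2. With only the groups compared in the fit, Egr1 did not pass against VAV (limma adjusted p = 0.0738) or CDK8KO (limma adjusted p = 0.127). The list took 0.118 to 0.150% of reads in DKO, 0.124 to 0.193% in CDK8KO, 0.143 to 0.171% in CDK19KO, 0.141 to 0.212% in VAV and 0.164 to 0.168% in WT. Its part in the level of Hspa1b was not tested.

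Among the rest of the chaperone network, 4 genes changed by limma in any of the 7 comparisons. Hspa12a, a distant HSP70 relative, rose in DKO against both single knockouts by limma, which did not call it against VAV. It had 145, 166, 177 and 184 normalized counts in DKO, against 31.5, 115, 60.2 and 82.1 in CDK8KO and 76.8, 51.8, 69.3 and 71.2 in CDK19KO. In VAV it had 39.2 to 90.97 and in WT 38.4 to 39.9. No library of any other genotype reached a DKO library, the nearest being CDK8KO replicate 2. The share of all genes that separate DKO in this way was not computed. Hspa12a is named because limma called it in these libraries, so the separation is no separate evidence. The log2 fold change was 1.35 ± 0.32 against CDK8KO (SE; limma adjusted p = 0.0343), where 1.05% of all genes rose, and 1.32 ± 0.32 against CDK19KO (limma adjusted p = 0.0365), where 1.34% rose. The edgeR test did not call it against CDK8KO (adjusted p = 0.0567). With the erythroid level as a covariate it was 0.78 against CDK8KO (limma adjusted p = 0.166) and 0.79 against CDK19KO (limma adjusted p = 0.207).

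The other 3 fell. Fkbp5, a cochaperone of HSP90 and of steroid receptors, averaged 1608 ± 354 in DKO and 2968 ± 456 in CDK19KO (SD, n = 4 each), which is -0.90 ± 0.22 in log2 (SE; limma adjusted p = 0.0390). Cct4, a subunit of the cytosolic chaperonin that folds actin and tubulin, averaged 2601 ± 248 in DKO and 3377 ± 94.1 in CDK19KO (SD, n = 4 each), -0.38 ± 0.09 (SE; limma adjusted p = 0.0318). Dnajc19, a J-domain protein of the mitochondrial inner membrane, averaged 519 ± 76.1 in DKO and 744 ± 74.8 in CDK8KO (SD, n = 4 each), -0.53 ± 0.13 (SE; limma adjusted p = 0.0474). Leaving out 1 of 8 libraries lost the call for Fkbp5, Cct4 and Dnajc19 in 7 cases each, and for Hspa12a in 8 cases against CDK19KO and 6 against CDK8KO. With the erythroid covariate none of the 3 that fell passed (limma adjusted p = 0.0752 for Fkbp5, 0.122 for Cct4 and 0.0912 for Dnajc19), and edgeR did not call Dnajc19 (adjusted p = 0.0600).

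By list, 1 of 26 tested cochaperones, 1 of 13 chaperonin and prefoldin genes, 1 of 10 other HSP70 and HSP110 genes and 1 of 36 other J-domain genes changed by limma in at least 1 comparison. These calls fell in DKO against CDK19KO (0.658% of all genes lower, 1.34% higher) and against CDK8KO (0.651% lower, 1.05% higher). The share of all genes called in at least 1 of the 7 comparisons was not computed, so the counts do not show a change of these lists. None did among 23 tested classic HSF1 targets outside the set, 3 small heat shock proteins, 2 other HSP90 genes and 3 genes of the HSF family and its regulators. The lists share some genes, among them Bag3, Stip1, Ahsa1 and Chordc1, which are both cochaperones and classic targets. Of the classic targets, 19 of 23 had a lower estimate in DKO against VAV (median -0.20), 17 against CDK8KO (median -0.11) and 16 against CDK19KO (median -0.14). Without DKO, 16 of the classic targets were lower in CDK8KO against VAV (median -0.05) and 10 in CDK19KO against WT (median 0.01). At an unadjusted p under 0.05, 5 of them were lower and 1 higher in DKO against VAV, 4 lower and 0 higher against CDK8KO, and 7 lower and 1 higher against CDK19KO. Over all genes 8.3, 8.55 and 6.99% were lower at that level in these comparisons, in the same order. The edgeR test called 0 of the classic targets in all 7 comparisons. DESeq2 called 2 in DKO against CDK8KO, where it called 328 genes higher and 383 lower of 13921 tested, and 0 in the other comparisons.

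Of the small heat shock proteins, 1 of 3 was higher at an unadjusted p under 0.05 in DKO against VAV. There 2200 of the 13976 genes tested stood at that level in either direction. Of the other HSP90 genes, 1 of 2 was higher at that level in VAV against WT (8.92% of all genes). Lists this short say little beside such rates. Of the HSF family and regulators 0 of 3 reached that level in any comparison, and edgeR and DESeq2 called 0 genes of these 3 lists. Medians of DKO against VAV were -0.09 for cochaperones, -0.08 for other J-domain genes, -0.01 for chaperonin and prefoldin genes and -0.02 for the other HSP70 and HSP110 genes, beside -0.01 for all genes and -0.31 for the 10. Against CDK19KO they were -0.20, -0.10, -0.15 and 0.13 in the same order.

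The genes whose deviations were most like the mean of the 9 chaperone genes over the 19 libraries, among 11683 genes with a mean of at least 50, included known partners of HSP90 and HSP70. Stip1, the adaptor between them, came first with r = 0.92. Next were Ripor1 (0.90), Prmt1 (0.88), Banf1 and Trim28 (0.87 each), Ahsa1, an activator of the HSP90 ATPase, and Mrpl12 (0.86 each) and Dnaja3, a mitochondrial J-domain protein (0.85). For Hspa1b alone the closest were Ddx5 (0.83), Map3k14 (0.82), Cxcl2 and Plk2 (0.81 each), Jun (0.76), Ptprs (0.73), and Osm and Tex2 (0.72 each). These correlations describe the same 19 libraries, which share depth and cell makeup, and carry no test.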

How the data were processed

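The values used are normalized counts, a signal that the authors deposited after dividing the reads of each library by a size factor; per the submitters' processing notes, Salmon 1.4.0, DESeq2 (no version) and the mm10 build were used, without their roles. The annotation and filters of the authors are not given in the sources used here. In each library 100% of values were whole multiples of 1 read (tolerance 0.001), so reads were recovered for edgeR 4.0.16 and DESeq2 1.42.0. Coordinates come from GENCODE M21.

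Groups were taken from the labels. Log2(normalized count + 1) was fitted with limma 3.58.1 (R 4.3.3, eBayes with trend) over all 5 genotypes without covariates, for the 13976 genes averaging 10 normalized counts or more over all libraries, with Benjamini-Hochberg adjustment over all genes and a threshold of 0.05. Fold changes on this scale understate the change of low genes. Single values were tested by exact permutation, and correlations with 100000 permutations within genotypes. A count of 0 allows up to 3 reads at 95% confidence, for counting error only. The 10 genes and all lists were chosen with earlier results of these data known. All 10 are named. Of other lists, genes past the threshold are named, at most 4 per list and comparison, and for likeness the 8 closest genes. Alternatives changed the pseudocount, filter, scaling, tool, covariates, control and libraries. The method was tested on simulated data. Libraries of a genotype were compared by chi-square for copies, and none was found (smallest value 15.5 for each degree of freedom).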

Additional observations from a re-analysis of the deposited data

Results flagged for a closer look

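In 3 of 40 groups of 4 libraries, 1 library stood apart from the other 3 by Dixon's test at the 95% level, and all 3 cases were inducible HSP70 genes. Chance would give such a flag in about 1 of 20 groups, or 2 of 40. Hspa1b was at 356 normalized counts in VAV replicate 1, against 56.2 to 68.5 in the other VAV libraries. Hspa1a was at 227 in that library, against 20.04 to 31.9 in the others. In CDK8KO replicate 4 Hspa1a was at 203, against 2.50 to 19.7 in the other CDK8KO libraries. Immediate early genes were above their genotype mean in the same libraries, by 0.28 in VAV replicate 1 and 0.50 in CDK8KO replicate 4 on the log2 scale, and the part of this in the HSP70 levels was not tested.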

How the results depend on the processing

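The 2 calls among the 10 genes rest on few libraries. The number of genes called in DKO against VAV was 1 (Hspa1b); it was 2 with DESeq2, 0 without the muscle-rich libraries (DKO replicate 4 and CDK19KO replicate 4), 0 when the fit held DKO and VAV alone and 0 with WT as the control. It ran from 0 to 1 with 1 library left out, and was 0 without VAV replicate 1 or any DKO library. In DKO against CDK8KO the count of 0 became 2 with DESeq2 and 1 without VAV replicate 1 and CDK8KO replicate 4, the libraries highest in Hspa1a and Hspa1b, an alternative chosen after seeing the data; it was 0 with any 1 library left out. In DKO against CDK19KO the count of 1 (Hsp90aa1) became 0 without a filter on low values, 0 with the erythroid level as a covariate, 0 without the muscle-rich libraries, 4 with array weights, 3 when the fit held DKO and CDK19KO alone and 2 without the libraries highest in Hspa1a and Hspa1b; it was 0 with any 1 of the 8 libraries left out. The erythroid covariate also absorbs part of the genotype difference, and the causes of these changes in count were not tested. The count of 2 correlated pairs became 0 without the 2 libraries farthest from the median. Hspa8 in DKO against VAV turned to 0.074 with WT as the control. In the other comparisons the count was 0 under every alternative run, leaving out 1 library included.

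No pairing of the libraries by replicate number was seen, though a partial pairing could escape this check. Over 36 same-numbered pairs of libraries of different genotypes the deviations correlated with r from -0.27 to 0.31 (median 0.008), and 6 pairs were over 0.1. Over 108 different-numbered pairs the median was 0.002. Of the 19 libraries, 4 correlated best with their own number. With the replicate block the counts of the 10 genes were as in the fit without it (1 in DKO against VAV, 0 in DKO against CDK8KO and 1 in DKO against CDK19KO), and over all genes in DKO against VAV 103 were higher and 93 lower, against 116 and 97 without the block. DESeq2 called 261 higher and 243 lower there. Depth limits Hspa1a most, with 0 to 12 reads a library in DKO and an SE of 1.01 on the log2 scale.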
